A study of Mus musculus with 57 samples.

Results

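The genes described here are the 4 adult globin genes Hbb-bs, Hbb-bt, Hba-a1 and Hba-a2 and the red cell heme synthesis gene Alas2, 5 of the 51456 gene identifiers measured in the prefrontal cortex of mice. They were chosen by name, as genes brought into the tissue by blood, with their levels over the 6 genotype-by-drug arms and in single libraries already known. Their differences between arms are therefore given as a description. How many of the 5 passed the threshold of the fit is printed beside the share of all genes that did, and nothing is read from either. What was tested is their difference between the sexes, and, in every comparison, the other genes of globin, heme, iron and red cell biology. All 5 genes passed the filter on low values, a mean value no lower than 10 over the 57 libraries, which left 16659 genes.

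Hemoglobin, the oxygen carrier of red cells, is built from alpha-like chains (Hba-a1, Hba-a2) and beta-like chains (Hbb-bs, Hbb-bt), each of which holds a heme. Heme is made in a chain of enzyme steps that starts in the mitochondrion. Alas2 is the form of 5-aminolevulinate synthase, the rate-limiting enzyme of this chain, that red cell precursors use, whereas Alas1 serves other tissues. Reticulocytes, the young red cells in the circulation, have lost the nucleus but still carry globin and Alas2 mRNA. A tissue sample that holds blood therefore holds these transcripts, and low globin expression by brain cells has also been described.

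RNA was sequenced from 57 C57BL/6N mice of both sexes, taken at postnatal day 25. Mice heterozygous for Shank2 (HT), a scaffold gene of excitatory synapses, had taken up the serotonin reuptake inhibitor fluoxetine, the mood stabilizer lithium, or vehicle with the milk of the dam over postnatal days 3 to 24 (10 mice each). Wild-type (WT) mice had taken up fluoxetine (10 mice), lithium (9 mice) or vehicle (8 mice) in the same way. The labels used here do not give the litters, the make-up of the vehicle, the Shank2 allele or whether blood was washed out of the brain. The values are normalized estimated counts, which summed to 30.4 to 33.2 M per library. Shank2 ran from 3877 to 5006 in HT libraries and from 6762 to 11791 in WT libraries, so every library matched its genotype label. The libraries WT vehicle male 2, HT fluoxetine male 3 and WT vehicle female 1 stood furthest from the rest, with median correlations with the other libraries of 0.968, 0.970 and 0.977. The highest median correlation of a library was 0.986. The differences over both sexes in which these 3 libraries take part are given with and without them.

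Both beta genes lie on the minus strand of chromosome 7 and both alpha genes on the plus strand of chromosome 11. In GENCODE coordinates on GRCm38, Hbb-bs (ENSMUSG00000052305) spans 103826534 to 103828096 and Hbb-bt (ENSMUSG00000073940) spans 103812524 to 103813996. Hba-a1 (ENSMUSG00000069919) spans 32283511 to 32284465, and Hba-a2 (ENSMUSG00000069917) spans 32296489 to 32297298. Alas2 (ENSMUSG00000025270) lies on the plus strand of chromosome X, from 150547375 to 150570638. The longest open reading frames of Hbb-bs and Hbb-bt differed at 1 of 444 bases, and those of Hba-a1 and Hba-a2 at 1 of 429 bases. Of all windows of 31 bases in the Hba-a1 transcript, 71.3% also stood in the Hba-a2 transcript, as did 91.0% the other way round. For Hbb-bs and Hbb-bt these shares were 66.9% and 59.4%. The division of estimated counts within each pair is therefore less certain than the sum over the pair.

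The 250 bases before the RefSeq start site (GRCm38.p6) are shown as a description of the genes. Whether they bear on the variation between libraries was not tested. RefSeq and GENCODE place the starts of these genes at different bases. Capitals mark every match, on either strand, to GATAA (bound by GATA factors of red cell precursors), CCAAT (the CCAAT box), CCNCNCCC (a CACCC-like motif) and TATAA (the TATA box). In Alas2 the matches to CCNCNCCC read on the opposite strand and some of them overlap, and its TATAA matches overlap on both strands. The windows are chr7:103827929-103828178 (minus strand), chr7:103813924-103814173 (minus strand), chr11:32283422-32283671 (plus strand) and chrX:150547167-150547416 (plus strand).
Hbb-bs: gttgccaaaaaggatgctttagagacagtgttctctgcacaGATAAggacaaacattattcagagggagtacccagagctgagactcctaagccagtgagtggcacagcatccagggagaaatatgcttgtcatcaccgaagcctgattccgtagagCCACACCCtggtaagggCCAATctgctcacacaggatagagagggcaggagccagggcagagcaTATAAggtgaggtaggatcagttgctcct
Hbb-bt: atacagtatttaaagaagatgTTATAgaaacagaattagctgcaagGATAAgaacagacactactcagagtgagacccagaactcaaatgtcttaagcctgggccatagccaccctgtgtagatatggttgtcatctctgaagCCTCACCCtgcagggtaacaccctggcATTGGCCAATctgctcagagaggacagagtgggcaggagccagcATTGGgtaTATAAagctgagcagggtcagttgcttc
Hba-a1: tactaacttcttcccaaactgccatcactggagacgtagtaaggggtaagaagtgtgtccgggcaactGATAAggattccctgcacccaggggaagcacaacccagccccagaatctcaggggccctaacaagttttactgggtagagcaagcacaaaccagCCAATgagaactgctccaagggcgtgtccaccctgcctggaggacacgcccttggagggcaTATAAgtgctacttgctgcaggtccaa
Alas2: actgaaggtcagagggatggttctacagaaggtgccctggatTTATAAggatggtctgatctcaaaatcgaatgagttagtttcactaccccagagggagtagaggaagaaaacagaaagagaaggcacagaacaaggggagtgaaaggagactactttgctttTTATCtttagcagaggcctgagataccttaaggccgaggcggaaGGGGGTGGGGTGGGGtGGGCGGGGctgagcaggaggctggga

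The Hba-a2 window was identical to that of Hba-a1 over all 247 aligned bases, shifted because its start lies elsewhere. The Hbb-bs and Hbb-bt windows had 71.7% identical bases over 244 aligned ones. GATAA stood in the windows of all 5 genes and in 22.6% of the 32851 promoter windows of the genome. A TATAA began 27 to 30 bases before the start in the 4 globin genes, whereas those of Alas2 lay 207 and 208 bases before it. TATAA stood anywhere in 22.8% of all windows. CCAAT was found in the 4 globin genes and in 33.8% of all windows, with no match in Alas2. CCNCNCCC was found in Hbb-bs, Hbb-bt and Alas2 and in 45.9% of all windows. These matches describe the letters in the window and are no measure of binding.

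Over all 57 libraries, Hbb-bs ran from 853 to 7244 normalized estimated counts with a median of 2657. Hba-a2 ran from 570 to 7009 with a median of 2588, and Hba-a1 from 433 to 4066 with a median of 1574. Hbb-bt ran from 52.5 to 1286 with a median of 428, and Alas2 from 35.8 to 248 with a median of 97.3. The highest library was WT vehicle female 1 for each of the 5 genes. The lowest was HT fluoxetine male 3 for each globin, and WT fluoxetine female 3 for Alas2. Summed over the 4 globins, the highest library held 10.3 times the value of the lowest. The globins made up 0.0227% of all values in the median library. The coefficient of variation over the libraries was 37.7% for Hba-a1, 38.9% for Alas2, 39.9% for Hba-a2, 40.3% for Hbb-bs and 45.5% for Hbb-bt. In bulk tissue, fewer cells of a type and less RNA per cell cannot be told apart.

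Divided by the length of the longest coding transcript, the median level per kilobase was 4672 for Hba-a2, 4231 for Hbb-bs, 2252 for Hba-a1, 608 for Hbb-bt and 47.8 for Alas2. Per kilobase, alpha chains summed to 1.47 times the beta chains in the median library, with a range of 1.15 in HT fluoxetine male 3 to 1.70 in WT fluoxetine female 4. The ratio of Hba-a1 to Hba-a2 per kilobase had a median of 0.491 and ran from 0.395 to 0.602. The ratio of Hbb-bt to Hbb-bs per kilobase was 0.143 in the median library. It was 0.0550 in HT fluoxetine male 3 and between 0.118 and 0.171 in the other 56 libraries. Alas2 had a median of 4.23 per 1000 of the 4 globins, on the same scale, and was highest in HT fluoxetine male 3, at 7.66. These ratios varied less over libraries than the levels did. Their coefficients of variation were 7.29% for alpha over beta, 9.09% for Hba-a1 over Hba-a2, 11.6% for Hbb-bt over Hbb-bs and 18.7% for Alas2 over globins.

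The 5 genes varied together over the libraries. Pearson's r of log2(value + 1) over 57 libraries was 0.954 to 0.977 between the globins and 0.832 to 0.906 between Alas2 and a globin. These libraries share their arms, so the arms' means were also removed. On the deviations of log2 values from the means of the 12 groups of genotype, drug and sex, r was 0.944 to 0.972 between globins and 0.848 to 0.927 for Alas2. Without HT fluoxetine male 3 and WT vehicle female 1, these ranges were 0.935 to 0.974 and 0.857 to 0.920. The correlations are given as a description.

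**Figure D1:**
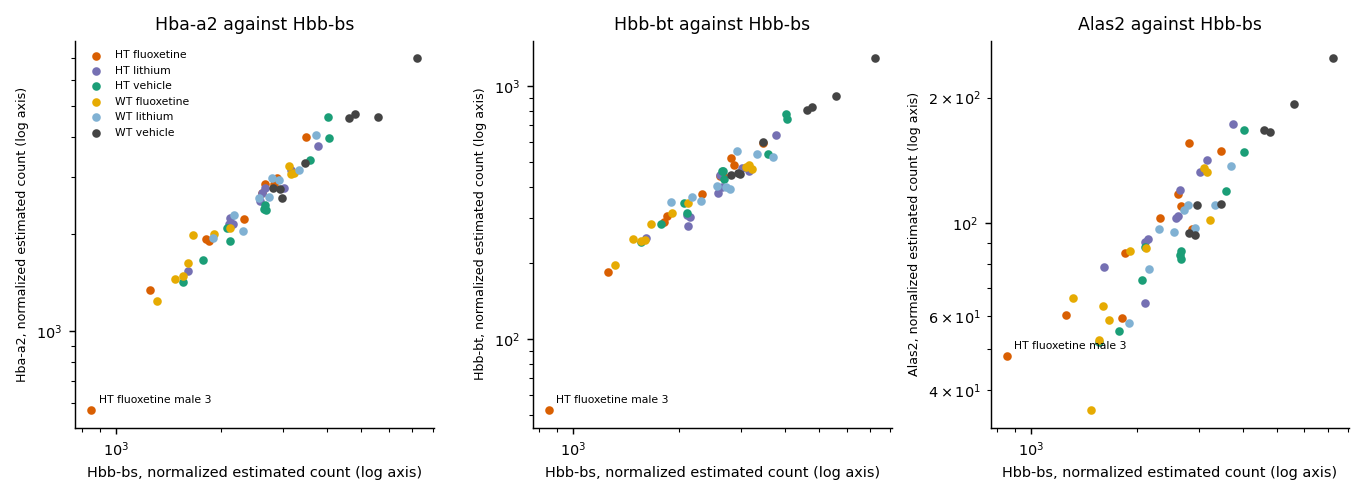
Hba-a2, Hbb-bt and Alas2 against Hbb-bs in the 57 libraries, as normalized estimated counts on log axes, coloured by arm; each point is 1 library. The points of all arms lie along a common line, and HT fluoxetine male 3, at 853 for Hbb-bs, lies below it for Hbb-bt (52.5).

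By arm, the WT vehicle libraries held the highest globin values. The sum of the 4 globins had a lowest, median and highest value of 1908, 6947 and 10398 in HT fluoxetine libraries. In HT lithium libraries it was 4423, 7353 and 10463, and in HT vehicle libraries 4165, 6954 and 11935. In WT fluoxetine libraries it was 3524, 5180.1 and 8685, in WT lithium libraries 5367, 7528 and 10682, and in WT vehicle libraries 7562, 11039 and 19604. The WT vehicle median thus stood above those of the other 5 arms, which lay between 5180.1 and 7528. The arms overlapped. At or above the lowest WT vehicle library were 3 of 10 HT fluoxetine, 3 of 10 HT lithium, 3 of 10 HT vehicle, 3 of 10 WT fluoxetine and 4 of 9 WT lithium libraries. At or above the WT vehicle median were 2 HT vehicle libraries and none of the other 4 arms.

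Hbb-bs, the more abundant beta gene, had a lowest, median and highest value of 1315, 1788 and 3223 in WT fluoxetine libraries, against 2807, 4045 and 7244 in WT vehicle libraries. The single WT fluoxetine libraries had Hbb-bs values of 3223, 1315, 1477, 1665 and 3110.0 in females and 3167, 1603, 2119, 1555 and 1911 in males. The single WT vehicle libraries had Hbb-bs values of 7244, 2974, 4615 and 2807 in females and 3474, 5607, 2936 and 4793 in males. Thus 3 of 10 WT fluoxetine libraries reached the range of WT vehicle libraries. In HT libraries, Hbb-bs had 853, 2472 and 3475 with fluoxetine, 1611, 2601 and 3765 with lithium, and 1556, 2661 and 4050 with vehicle. The 3 HT medians lay within the range of the HT vehicle libraries.

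Hba-a2, the more abundant alpha gene, had a lowest, median and highest value of 1240.3, 1992 and 3246 in WT fluoxetine libraries. It had 1949, 2604 and 4042 in WT lithium libraries, against 2588, 3949 and 7009 in WT vehicle libraries. In HT libraries, Hba-a2 had 570, 2449 and 4012 with fluoxetine, 1538, 2606 and 3741 with lithium, and 1425, 2382 and 4594 with vehicle. At or above the lowest WT vehicle value of Hba-a2 were 5 of 10 HT fluoxetine, 5 of 10 HT lithium, 3 of 10 HT vehicle, 3 of 10 WT fluoxetine and 5 of 9 WT lithium libraries. Its sister gene Hba-a1 had 773, 1102 and 1973 in WT fluoxetine libraries and 1173, 1619 and 2405 in WT lithium libraries, against 1551, 2346 and 4066 in WT vehicle libraries. In HT libraries, Hba-a1 had medians of 1563 with fluoxetine, 1609.5 with lithium and 1407 with vehicle.

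Hbb-bt, the less abundant beta gene, had a lowest, median and highest value of 196, 299.9 and 485 in WT fluoxetine libraries and 349, 398 and 553 in WT lithium libraries, against 444, 699.7 and 1286 in WT vehicle libraries. In HT libraries, Hbb-bt had medians of 409 with fluoxetine, 389 with lithium and 444 with vehicle. Alas2 had 35.8, 76.2 and 136 in WT fluoxetine libraries and 57.7, 97.7 and 137 in WT lithium libraries, against 93.6, 138 and 248 in WT vehicle libraries. In HT libraries, Alas2 had 48.1, 100.1 and 156 with fluoxetine, 64.4, 104 and 173 with lithium, and 51.9, 85.2 and 168 with vehicle. The order of the arms by median was the same at its top for all 5 genes, WT vehicle, and for each gene the WT fluoxetine arm had the lowest median. The arms between these ends overlapped over most of their ranges.

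**Figure D2:**
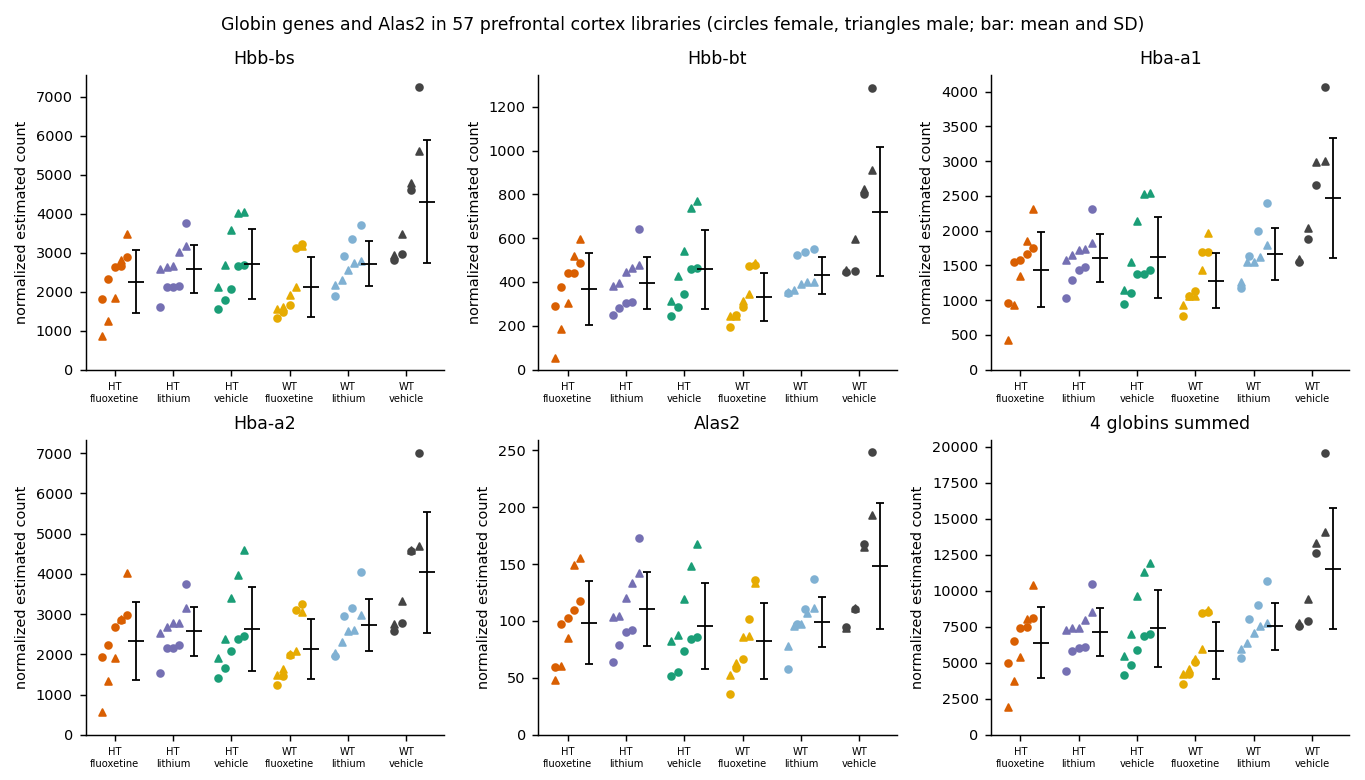
Normalized estimated counts of the 4 globins, Alas2 and the globins summed in each of the 57 libraries, by arm; circles are females, triangles males, and the bar at the right of each arm is the mean with the SD. WT vehicle libraries reach 19604 for the summed globins, and HT fluoxetine male 3 is lowest at 1908.

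The study's design implies comparisons of each drug with vehicle in each genotype, of HT with WT under each treatment, and of the drug effects between genotypes. Differences below are those of log2(value + 1) in 1 limma fit of all libraries, each with its standard error. A gene counts as called where its p, adjusted over all 16659 genes by the Benjamini-Hochberg method, was under 0.05.

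Under fluoxetine in WT, the difference from vehicle was -1.03 ± 0.22 for Hbb-bs, -1.09 ± 0.28 for Hbb-bt, -0.93 ± 0.22 for Hba-a1, -0.92 ± 0.24 for Hba-a2 and -0.87 ± 0.23 for Alas2. The mean of the summed globins in WT fluoxetine libraries was 0.507 times that in WT vehicle libraries. In the limma fit 4 of the 5 genes, all but Hba-a2, were called, as were 0.84% of all tested genes (140, of which 86 fell). The 5 genes were chosen with these levels known, so that count is no evidence about them. For Alas2 the difference was -0.99 in females and -0.74 in males, and the difference between the sexes was not tested. For Hbb-bs the mean was 2158 ± 930 in WT fluoxetine females against 4409.9 ± 2058 in WT vehicle females, and 2071 ± 655 in WT fluoxetine males against 4203 ± 1219 in WT vehicle males (SD). The number of called genes depended on single libraries. Without WT vehicle male 2 it was 0, with differences of -0.78 to -1.01, and without WT vehicle female 1 it was 1. Without WT fluoxetine female 2, WT fluoxetine male 4, WT fluoxetine male 5 or WT vehicle female 3 it was also 1. It was 2 without WT fluoxetine female 3 or 4, WT fluoxetine male 2 or 3, WT vehicle female 4 or WT vehicle male 4. With the 3 libraries that stood apart left out together, 0 of the 5 genes and 13 of all genes were called, and the differences were -0.65 to -0.86.

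Under lithium in WT, the difference from vehicle was -0.60 ± 0.22 for Hbb-bs, -0.65 ± 0.29 for Hbb-bt, -0.52 ± 0.23 for Hba-a1, -0.51 ± 0.25 for Hba-a2 and -0.53 ± 0.24 for Alas2. By limma, 0 of the 5 genes were called and 4 had an unadjusted p under 0.05. Of all tested genes, 8.53% were called and 23.8% had an unadjusted p under 0.05. Without the 3 libraries that stood apart, the differences were -0.31 to -0.42.

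Between HT and WT under vehicle, the difference was -0.66 ± 0.22 for Hbb-bs, -0.65 ± 0.28 for Hbb-bt, -0.62 ± 0.22 for Hba-a1, -0.64 ± 0.24 for Hba-a2 and -0.64 ± 0.23 for Alas2. By limma, 0 of the 5 were called and 5 had an unadjusted p under 0.05. Of all tested genes, 0.762% were called and 14.8% had an unadjusted p under 0.05. For Alas2 the difference was -1.06 in females, with means of 70.2 ± 15.9 in HT against 155 ± 69.5 in WT, and -0.21 in males, with means of 121 ± 37.1 in HT against 141 ± 46.5 in WT (SD). All 5 HT vehicle females lay below all 4 WT vehicle females for Hbb-bs, Hba-a1, Hba-a2 and Alas2, and 3 of 5 for Hbb-bt. The difference between the sexes in this contrast was not tested. Without the 3 libraries that stood apart, the differences over both sexes were -0.42 to -0.45. The WT vehicle libraries enter the 3 comparisons just given, so these share a reference and are no independent evidence of each other.

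In HT, fluoxetine against vehicle gave -0.30 ± 0.20 for Hbb-bs, -0.44 ± 0.26 for Hbb-bt, -0.21 ± 0.21 for Hba-a1, -0.23 ± 0.23 for Hba-a2 and 0.04 ± 0.22 for Alas2. Without HT fluoxetine male 3 these were -0.17, -0.17, -0.03, -0.03 and 0.15. Lithium against vehicle in HT gave -0.17 ± 0.26 for Hbb-bt at one end and 0.24 ± 0.22 for Alas2 at the other. By limma, 0 of the 5 genes were called in either comparison, also 0 at an unadjusted p under 0.05, while 0.33% of all tested genes were called under fluoxetine and 0.888% under lithium. Of all tested genes, 14.6% and 12.8% had an unadjusted p under 0.05 in these comparisons. Within the sexes, fluoxetine against vehicle in HT gave -0.82 for Hbb-bs in males, with means of 2049 ± 1088 against 3289 ± 861, and 0.21 in females, with means of 2458 ± 413 against 2145 ± 505 (SD, n = 5 each). Without HT fluoxetine male 3, the difference in males was -0.55 for Hbb-bs, and the difference between the sexes was not tested.

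Between HT and WT under fluoxetine, the differences ran from -0.005 ± 0.26 for Hbb-bt to 0.27 ± 0.22 for Alas2. Without HT fluoxetine male 3 they were 0.20 for Hbb-bs, 0.27 for Hbb-bt, which changed sign, 0.28 for Hba-a1, 0.26 for Hba-a2 and 0.38 for Alas2. Under lithium they ran from -0.17 ± 0.27 for Hbb-bt to 0.13 ± 0.22 for Alas2. By limma, 0 of the 5 genes were called in either, and 0 had an unadjusted p under 0.05, while 0.222% of all tested genes were called under fluoxetine and 0.114% under lithium. Of all 16659 tested genes, 1745 and 1291 had an unadjusted p under 0.05. The effect of fluoxetine in HT less that in WT was 0.72 ± 0.30 for Hbb-bs, 0.65 ± 0.38 for Hbb-bt, 0.72 ± 0.31 for Hba-a1, 0.69 ± 0.34 for Hba-a2 and 0.91 ± 0.32 for Alas2. The effect of lithium in HT less that in WT ran from 0.47 ± 0.39 for Hbb-bt to 0.77 ± 0.32 for Alas2. Without the 3 libraries that stood apart, the fluoxetine values ran from 0.64 for Hbb-bs to 0.81 for Alas2 and the lithium values from 0.24 for Hbb-bt to 0.56 for Alas2. In both of these differences limma called 0 of the 5 genes and 0% of all tested genes. An unadjusted p under 0.05 was had by 4 of the 5 genes for fluoxetine and by 1 for lithium, and by 7.71% and 7.31% of all tested genes.

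**Figure D3:**
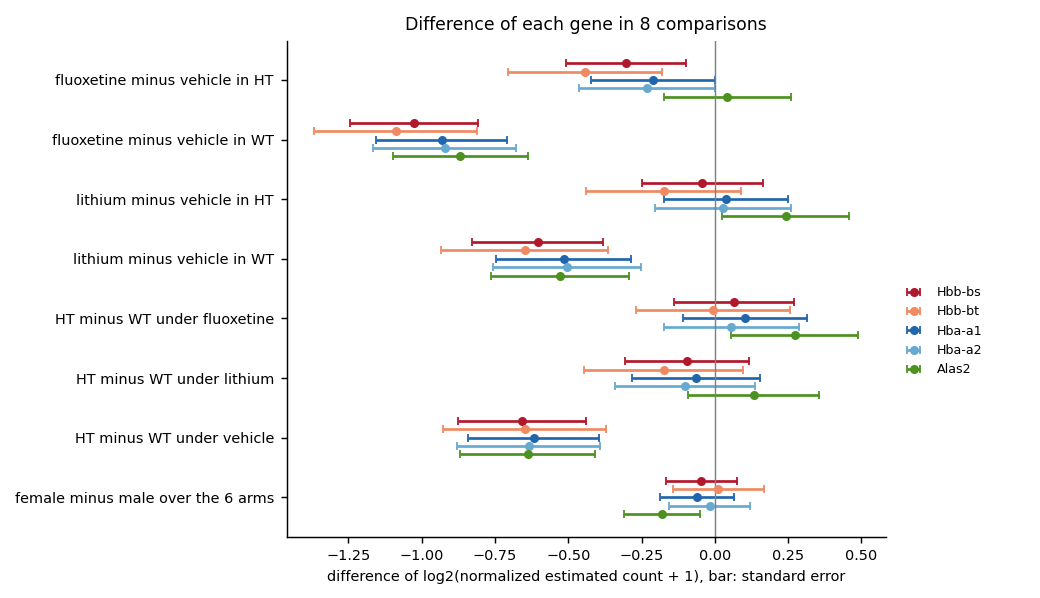
Difference of log2(normalized estimated count + 1) for the 4 globins and Alas2 in 8 comparisons, with the standard error of the fit as a bar. The differences sit between -0.87 and -1.09 for fluoxetine against vehicle in WT, and between -0.17 and 0.27 for HT against WT under either drug.

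The comparison of the sexes over the 6 arms was not used to choose these genes. Females less males gave -0.05 ± 0.12 for Hbb-bs, 0.01 ± 0.16 for Hbb-bt, -0.06 ± 0.13 for Hba-a1, -0.02 ± 0.14 for Hba-a2 and -0.18 ± 0.13 for Alas2. By limma, 0 of the 5 genes were called and 0 had an unadjusted p under 0.05, with adjusted p from 0.952 to 0.999, while 0.108% of all tested genes were called. A difference of the sexes was therefore not detectable within these errors.

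The embryonic and minor globins were at or near 0. Hba-x, an embryonic alpha-like gene, and the beta-like gene Hbb-bh2 were listed at 0 in all 57 libraries. So were Hbb-bh0 and Hbb-bh3, which the annotation lists as pseudogenes. The embryonic genes Hbb-bh1 and Hbb-y had mean values of 0.0205 and 1.37, and the theta-like genes Hbq1a and Hbq1b had 7.10 and 2.55. None of these 8 genes and pseudogenes reached the mean of 10 needed for testing. Among globins of other tissues, cytoglobin (Cygb) had a mean of 1032, neuroglobin (Ngb) 78.3, androglobin (Adgb) 15.0 and myoglobin (Mb) 1.59. Limma called none of the 3 tested in any comparison, with 7 of 30 tests at an unadjusted p under 0.05. Under fluoxetine in WT, the difference was 0.03 ± 0.06 for Cygb and -0.20 ± 0.15 for Ngb.

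Of a list of 27 genes that red cell precursors use before the nucleus is lost, 26 matched an identifier and 10 passed the filter. The other matched genes had means below 10. Defining genes were at or near 0: Gata1, the lead transcription factor of red cell precursors, had a mean of 0.0378, and Klf1, another red cell transcription factor, had 2.84. Band 3 (Slc4a1), the anion exchanger of the red cell membrane, had a mean of 7.34 and a highest value of 63.1 in WT fluoxetine female 1. Limma called none of the 10 tested genes under fluoxetine in WT, where their median difference was -0.02, or between HT and WT under vehicle, where it was -0.05. An unadjusted p under 0.05 was had by 2 and 1 of them, and the median over all genes was 0.003 and -0.003 in these comparisons. The most abundant of the list, beta-spectrin (Sptb, mean 5082) and Ank1 (mean 1816), are also used by neurons. Their differences under fluoxetine in WT were 0.12 ± 0.06 and 0.18 ± 0.11. Under lithium in WT 2 of the 10 tested genes were called in the fit reported, as were 8.53% of all tested genes. The dependence of such calls on the processing is given at the end. Ermap, a red cell adhesion protein, rose by 0.55 ± 0.18 on the log2 scale (adjusted p = 0.0484), and Bpgm, which makes the regulator of oxygen release 2,3-bisphosphoglycerate, fell by 0.15 ± 0.04 (adjusted p = 0.0172).

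The remaining enzymes and transporters of heme synthesis, which all cells need, were abundant and showed differences near 0. All 12 were tested and 0 were called by limma in any of the 10 comparisons, with 11 of 120 tests at an unadjusted p under 0.05. Alas1, the form of the rate-limiting enzyme outside red cells, had a mean of 1603 and a difference of -0.01 ± 0.04 under fluoxetine in WT. Ferrochelatase (Fech), which inserts the iron, had a mean of 1838 and a difference of -0.005 ± 0.04. The median difference of the list was -0.01 under fluoxetine in WT, 0.02 under lithium in WT and 0.02 between HT and WT under vehicle. None of the 9 tested genes of heme breakdown and scavenging and none of the 15 tested genes of iron handling was called in any comparison. An unadjusted p under 0.05 was had in 8 of 90 and 11 of 150 tests of these lists. Under fluoxetine in WT, Lrp1, the receptor for hemopexin-bound heme, had a difference of -0.11 ± 0.06, and Slc48a1, a heme transporter, -0.01 ± 0.04. The ferritin subunits Fth1 and Ftl1, which store iron, had -0.06 ± 0.05 and -0.16 ± 0.05, and the list of iron genes had a median of -0.01.

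**Figure D4:**
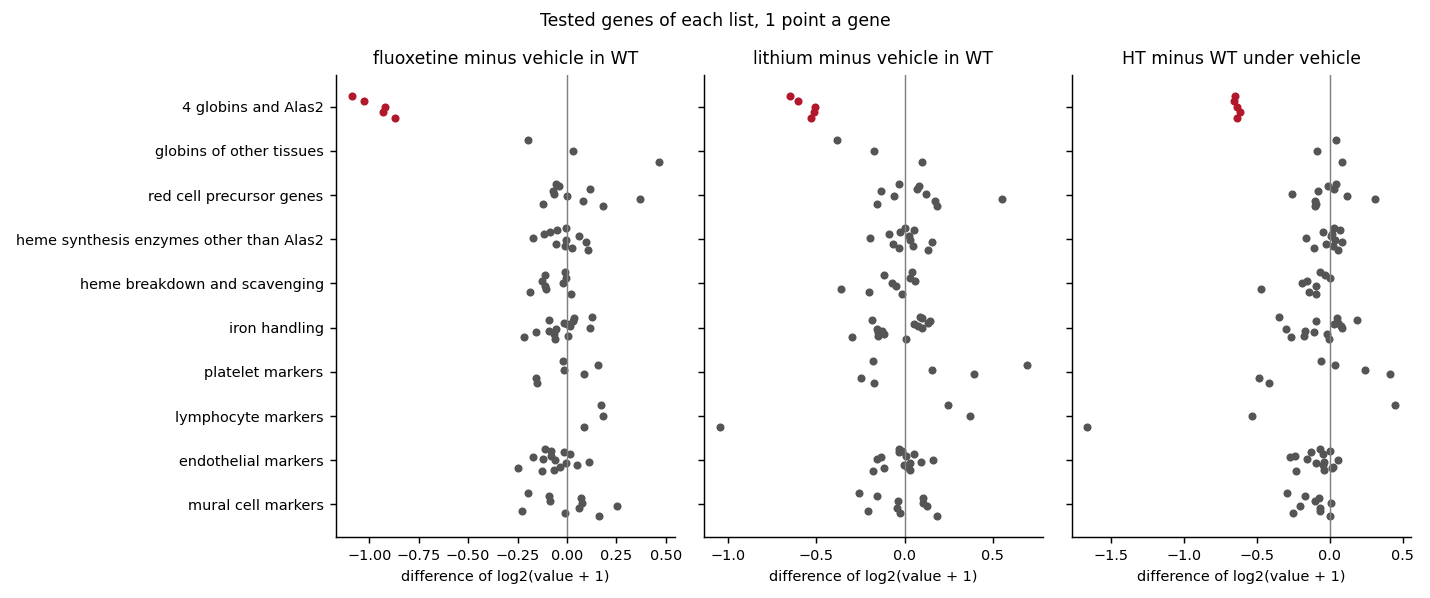
Differences of log2(value + 1) for the tested genes of 10 lists under fluoxetine and lithium in WT, each against vehicle, and between HT and WT under vehicle; each point is 1 gene. The globins and Alas2 (red) lie between -0.87 and -1.09 in the fluoxetine panel, while the heme synthesis enzymes lie near 0.

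Marker lists of other cell types were summed per library and set beside the globins. For r, the log2 sums and the log2 values of the globins were taken as deviations from the means of the groups of genotype, drug and sex. Differences between arms do not enter such an r, so it does not show whether a list and the globins go together between arms. On these deviations, mural cell markers (10 of 10 tested) had r = 0.479 with the globins over 57 libraries. Lymphocyte markers (3 of 14 tested) had 0.475. Platelet markers (6 of 13 tested) had 0.376, leptomeningeal markers 0.314, endothelial markers 0.291 and neutrophil markers 0.018. HT fluoxetine male 3 was the lowest of 57 libraries for globins, mural cell markers (5995) and lymphocyte markers (83.1). Without it and WT vehicle female 1, r was 0.368 for mural cell and 0.378 for lymphocyte markers. By arm, the order of the medians differed between these lists. Lymphocyte markers ran from 272 to 784, with a median of 591, in WT fluoxetine libraries, and from 320 to 651, with a median of 499, in WT vehicle libraries. In HT vehicle libraries they ran from 241 to 349, with a median of 309. Mural cell markers had medians of 9346 in WT fluoxetine, 9326 in WT lithium and 9504 in WT vehicle libraries. In HT libraries these were 8810 with fluoxetine, 9169 with lithium and 8878 with vehicle. WT vehicle libraries thus had the highest median for mural cell markers, as for the globins. The same held for leptomeningeal markers (8582.5, against 6925 to 7714 in the other arms). It also held for platelet markers (174.9, against 161.0 to 174.6) and choroid plexus markers (268.8, against 189.7 to 235.2). Striatal projection neuron markers had the same top arm (7287, against 5891 to 7218). Endothelial markers had medians of 12232.5 in WT vehicle and 12354.5 in WT lithium libraries, and 10820 to 11883 in the other arms. Most of the lymphocyte sum came from Ighm (mean 356), and T cell genes such as Cd3e (mean 1.95) and Cd3d (mean 0.346) were near 0. Within the mural list, Rgs5 had the highest mean (3579) and r = 0.587 with the globins on the deviations. The other genes of that list had r from -0.188 (Cspg4) to 0.395 (Vtn). Limma called none of the tested platelet, neutrophil, lymphocyte, endothelial or mural cell markers in any comparison. An unadjusted p under 0.05 was had in 6 of 60, 0 of 10, 6 of 30, 27 of 150 and 11 of 100 tests of these lists. The part of these cells in the globin differences was not tested.

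Of markers of tissue next to the cortex, 4 genes were called in the fit reported. Tested in each comparison were 10 leptomeningeal, 7 choroid plexus and 10 striatal markers. Of all tested genes, 0.762% were called between HT and WT under vehicle, 8.53% under lithium in WT and 0.888% under lithium in HT. How such calls depended on the processing is given at the end. The choroid plexus gene Clic6 was lower in HT than in WT under vehicle, by a log2 difference of -1.87 ± 0.44 (adjusted p = 0.028). Its mean over all libraries was 31.9 and its highest value 195.7, in WT vehicle male 1. Without that library the difference was -1.41. Under lithium against vehicle in WT, the choroid plexus gene F5 had a difference of 0.71 ± 0.23 (adjusted p = 0.0471) and the leptomeningeal gene Igf2 of -0.35 ± 0.11 (adjusted p = 0.045). The leptomeningeal gene Lum had 0.67 ± 0.17 under lithium against vehicle in HT (adjusted p = 0.0315). Summed striatal projection neuron markers ran from 5015 to 6326 in HT vehicle libraries and from 4652 to 26567 in WT vehicle libraries, and WT vehicle female 1 was lowest of all 57 libraries. WT vehicle male 1 was the highest library for each striatal marker but Gpr6. The median difference of the 10 striatal markers, all tested, was -0.68 between HT and WT under vehicle, with 8 of 10 at an unadjusted p under 0.05. It was -0.16 under fluoxetine in WT and -0.47 under lithium in WT, with 0 of 10 in each. The effect in HT less that in WT had a striatal marker median of 0.77 for fluoxetine and 0.60 for lithium. Limma called none of these markers in the comparisons just named. On deviations from the group means, the summed striatal markers had r = -0.211 with the globins over 57 libraries, and choroid plexus markers had -0.048. Differences between arms do not enter these r values. The part of these tissues in the globin differences was not tested.

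The libraries also differed in a trend of the values with transcript length. Its mean was 0.025 in WT fluoxetine and 0.049 in WT lithium libraries, against -0.084 in WT vehicle libraries, where WT vehicle male 2 had -0.331. Over 57 libraries it had r = 0.059 with the deviations of the globins from the means of the 12 groups. The globin differences between arms do not enter this r, so it does not show whether trend and globins go together between arms. When the fit also held a term for this trend, the differences under fluoxetine in WT were -0.94 to -1.15 and 0 of the 5 genes were called, as were 0 of all genes.

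Outside the 5 genes, the gene whose deviations from the 12 group means were most like those of the globins was the endothelial apelin receptor Aplnr (r = 0.681 over 57 libraries). Next came catalase (Cat, 0.671), Tmem114 (0.654), the endosomal ferrireductase Steap3 (0.650), Angptl2 (0.642), As3mt (0.640), the endothelial gene Mmrn2 (0.626), Hhatl (0.620), Gm10635 (0.606) and the endothelial gene Ecscr (0.604). Over all 16654 other genes r ran from -0.611 to 0.681, with a median of -0.003. Without HT fluoxetine male 3, r fell to 0.631 for Aplnr, 0.555 for Cat and 0.449 for Ecscr. No other gene came near the r of Alas2 with the globins, 0.892 on the same scale. The tested genes that neighbour the globin and Alas2 genes within 100 kb, such as Nprl3 (r = -0.206) and Mpg (r = -0.349) beside the alpha genes and Apex2 (r = -0.221) beside Alas2, had r of -0.349 to 0.254 with the globins. Limma called none of these neighbours in any of the 10 comparisons.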

How the data were processed

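Stranded mRNA libraries (TruSeq, a kit that selects poly(A) RNA) were sequenced from 57 mice, per the labels' protocols. The deposited values are a signal that is never negative, namely estimated counts that the authors normalized. The submitters' processing notes name GRCm38 and the tools DESeq2 1.19.11, Salmon 0.11.2 and R 3.6.0. Neither annotation release nor strand setting is given in the sources used here. Whole reads could not be recovered, so single-library depth is unknown.

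Differences come from limma 3.58.1 (R 4.3.3; robust moderation with a trend) on values plus 1 on a log2 scale, where small values show too small a change. Genes whose mean reached 10 entered 1 fit of the 12 groups of genotype, drug and sex, with both sexes weighted equally and Benjamini-Hochberg adjustment over all genes. The fit was also run on simulated data made from shuffled residuals of the main fit, and that outcome is not reported here. The 5 genes and all gene lists were chosen with earlier results of these data known. Named beside the 5 genes are, per list and comparison, up to 4 called genes by smallest p; where none was called, the 2 of highest mean value in the red cell, heme, iron and globin lists; and the 10 genes whose deviations from the group means were most like those of the globins. Other list genes, such as those at or near 0 and the neighbours, were named after their values were seen. The alternatives tried were pseudocounts of 0.1 and 10, no filter, only the groups compared, equal sums of values, no moderation by trend, a block for the replicate number, a term for transcript length, and libraries left out. With no litter in the labels, a p-value measures the spread between these libraries alone, which may in part be that between litters. Some genes of the red cell list are not reported here.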

Additional observations from a re-analysis of the deposited data

Results flagged for a closer look

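Of 120 sets of 4 or 5 libraries examined (10 quantities in 12 groups), 6 held a library far from the others of its group, and chance alone flags about 1 in 20. HT lithium female 5 was high in Hbb-bt, at 642.3. WT lithium female 1 was low in Hbb-bt, at 349.1. HT fluoxetine female 4 was low in Hba-a1, at 964.1, and in Alas2, at 59.42. The ratio of Hbb-bt to Hbb-bs per kilobase was low in HT fluoxetine male 3, at 0.05497. Alas2 per 1000 of the 4 globins, per kilobase, was low in HT vehicle female 2, at 3.486.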

How the results depend on the processing

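The number of the 5 genes called for fluoxetine against vehicle in WT, 4 in the fit reported, was the one count of these genes that moved. It was 1 with no filter on low values, where 41 of all genes were called, 0 with only the groups compared (2 of all genes), 0 with the length term (0 of all genes) and 0 with the 3 libraries that stood apart left out (13 of all genes). With 1 library left out it ran from 0 to 5. With the pseudocounts of 0.1 and 10, equal sums of values or no moderation by trend it was 3 to 5. With a block for the replicate number it was 2, and 47 of all genes were called. The replicate numbers do not pair the libraries: the 300 pairs that share a number had a median correlation of -0.008, and 28 exceeded 0.1. In the other 9 comparisons the count of the 5 genes called was 0 under every alternative run. With 1 library left out, the number of all genes called ran from 5 to 563 (140 with all) for fluoxetine and from 796 to 1979 (1421) for lithium in WT. It ran from 34 to 394 (127) for HT against WT under vehicle and from 19 to 171 (55) for fluoxetine in HT. Between the sexes, the difference of Hba-a2 ran from -0.086 to 0.032 and that of Hbb-bt from -0.080 to 0.065 with 1 library left out, around main values of -0.02 and 0.01. The difference of Hbb-bt was -0.107 without the 3 libraries. The list genes called in the fit reported were Ermap, Bpgm, Clic6, F5, Igf2 and Lum, each in 1 comparison. Shank2 was called between HT and WT under each treatment, with adjusted p of 3.69e-19 or lower by limma. Among these calls of list genes and of Shank2, 6 were lost with only the groups compared and 5 with the length term. A loss of 6 can take in every call of a list gene. With no filter 4 were lost, and 3 with the 3 libraries left out. Equal sums of values and no moderation by trend lost 2 each, and the block for the replicate number lost 1. The length term and the joint removal of the 3 libraries were chosen after seeing the data. The cause of these moves was not tested. Since depth per library is unknown, no counting limit is given.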
